A study of Mus musculus with 4 samples.

Results

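Endothelial-like cells in embryoid bodies were defined here as cell barcodes with at least 1 UMI (unique molecular identifier, 1 per captured transcript) in 3 or more of 7 genes, Cdh5, Emcn, Cldn5, Tie1, Sox18, Ecscr and Plvap. Barcodes with fewer than 500 genes, or with more than 15% of UMIs from mitochondrial genes, were left out first. The rule found 53 such cells among 13808 kept cells of 4 single-cell libraries: 18 in Hx8, 23 in Nx8, 9 in Hx10 and 3 in Nx10. The cells were thus chosen by the UMIs of these 7 genes, whose levels are given as a description and support nothing else. All libraries came from R1, a mouse embryonic stem cell line, grown as embryoid bodies, which are free-floating aggregates that differentiate into many tissues without added patterning. Hx8 had 7.33 days in normoxia followed by 16 h in hypoxia, and Nx8 had 8 days in normoxia. Hx10 had 8 days in normoxia followed by 48 h in hypoxia, and Nx10 had 10 days in normoxia. The oxygen level, the medium and any added factors are not given in the sources used here. Each condition was 1 library from dissociated embryoid bodies of 1 cell line, so no difference below has a replicate check and no p-value is given. Intervals are exact 95% intervals that cover counting error only.

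Endothelial cells line blood vessels and the heart's inner surface. They arise from mesodermal progenitors that carry the VEGF receptor KDR, are held together by VE-cadherin (Cdh5) and claudin-5 (Cldn5), and are kept in their identity largely by ETS-family and SOX F transcription factors. Low oxygen, through the HIF transcription factors, makes neighbouring tissue release VEGF, to which endothelial tip cells respond by sprouting, and also acts inside the endothelial cell, where it shifts energy use toward glycolysis.

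Depth differed between the libraries and between the cells compared. The 4 libraries held 63117306 to 85379390 UMIs. Endothelial-like cells of Hx8 had a median of 56786 UMIs, against 18794 in the other kept cells of that library. In Nx8 the medians were 19924 and 23108 UMIs, and in Hx10 11439 and 12809. Of the 18 Hx8 cells, 10 belonged to the 5% of kept cells with most UMIs in that library. The summed material was 1098854 UMIs in Hx8, 677956 in Nx8, 109155 in Hx10 and 109511 in Nx10. Across library pairs 15 barcodes were shared, and 0 of them belonged to an endothelial-like cell.

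The label was checked against genes the rule did not use, cell by cell, and is described for 2 classes of cells by their number of rule genes. Of the 53 cells 39 had UMIs in 4 or more of the 7 genes (18 in Hx8, 12 in Nx8, 8 in Hx10 and 1 in Nx10). Pecam1, the adhesion molecule PECAM-1 of endothelial junctions, was detected in 38 of these 39, and a median of 17 of 20 other surface and junction genes was detected per cell (5 to 20). None of the 39 had a UMI of Ptprc, the pan-leukocyte gene CD45, and none had 3 or more genes of the macrophage or megakaryocyte lists. 3 or more genes of another list were found in 10 of them for the mesenchymal list, in 4 for the erythroid list and in 1 each for the endoderm, cardiomyocyte and mesothelial lists. The pericyte and smooth muscle list was left out of this count. Some of the 39 cells also had 3 or more of its genes, such as 1 Hx8 cell of 132554 UMIs with 4 genes and 9 UMIs. The shallowest of the 39, a Nx8 cell of 1177 UMIs, had 5 surface and junction genes and no UMI of Pecam1 or Flt1. The 14 cells with exactly 3 rule genes (11 in Nx8, 1 in Hx10, 2 in Nx10) held fewer such genes. Pecam1 was detected in 3 of them, and their median was 4 of the 20 surface and junction genes. Both Nx10 cells of this kind held 316 and 405 UMIs of macrophage genes and had Ptprc. Among the 11 of Nx8, 1 cell held 2123 UMIs of endoderm genes, 1 held 566 of megakaryocyte genes and 1 held 130 of macrophage genes, and 5 cells had under 5000 UMIs. Of the 14 cells, 11 passed through Ecscr, which had a UMI in 37.5% of the other kept cells, against at most 1.41% for each of the other 6 rule genes. The 1 such cell in Hx10 had 10 surface and junction genes, 5 UMIs of Pecam1 and none of the mesenchymal list, so the number of rule genes does not sort every cell as these other genes do. The name endothelial-like is used for all 53 as chosen, and values in the 39 cells stand beside many results.

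**Figure D1:**
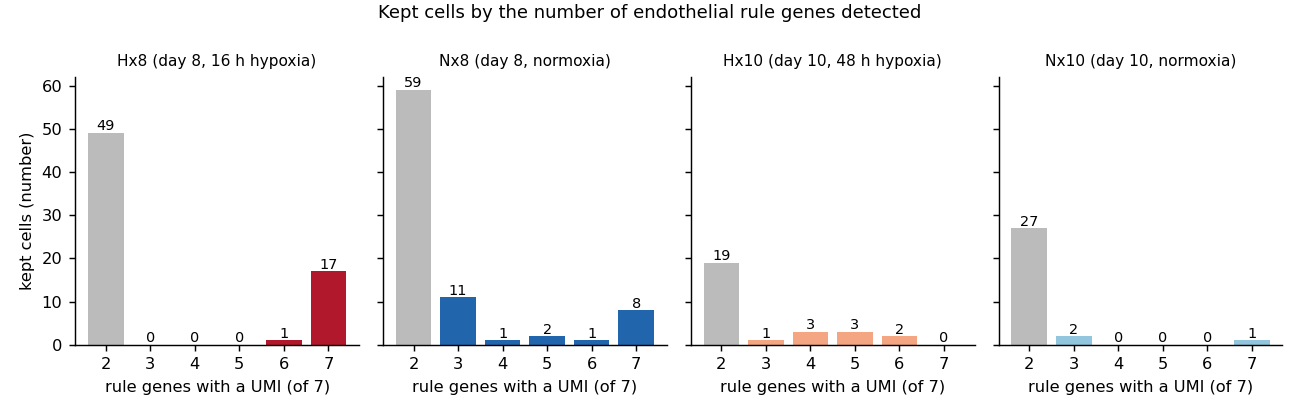
Kept cells (number, y axis) by how many of the 7 rule genes had a UMI (x axis, 2 to 7), 1 panel per library; grey bars are cells below the threshold of 3. In Hx8 the cells fell at 6 and 7 genes with none at 3 to 5, whereas in Nx8 11 of 23 cells sat at exactly 3.

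**Figure D2:**
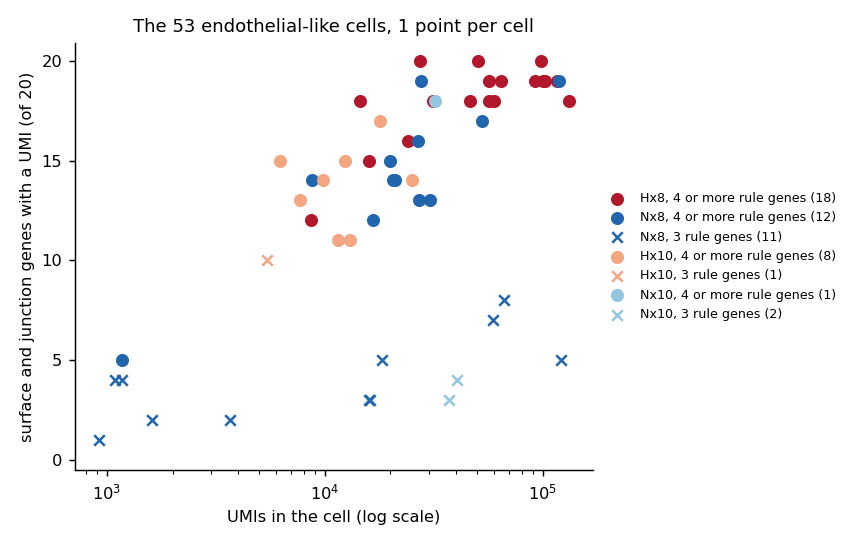
Each point is 1 of the 53 endothelial-like cells, by its UMIs (x axis, log scale) and the number of 20 surface and junction genes detected (y axis); circles have 4 or more rule genes and crosses 3. The crosses lie between 1 and 10 genes, below the circles of like depth, and the 1 circle at 5 genes is a cell of 1177 UMIs.

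Cells just below the threshold, with 2 rule genes, numbered 49 in Hx8, 59 in Nx8, 19 in Hx10 and 27 in Nx10, 154 in all. Just above it lay the 14 cells with 3 genes. Endothelial-like cells made up 0.538% (0.319 to 0.849) of kept cells in Hx8, against 0.726% (0.461 to 1.09) in Nx8. They made up 0.195% (0.0892 to 0.370) in Hx10, against 0.112% (0.0231 to 0.327) in Nx10. The intervals overlapped between hypoxia and normoxia on both days. With 4 or more rule genes the shares were 0.538% (0.319 to 0.849) in Hx8 and 0.379% (0.196 to 0.661) in Nx8, so the order of the 2 libraries of day 8 turned over. By the rule of 3 genes, without the 5% of kept cells with most UMIs, they were 0.252% in Hx8 and 0.631% in Nx8, the order found with all kept cells. With 4 or more rule genes they were 0.173% (0.0749 to 0.341) in Hx10 and 0.0373% (0.000945 to 0.208) in Nx10. When every cell was thinned to 5000 UMIs, the rule kept 18 cells in Hx8 and 11 in Nx8, 8 in Hx10 and 1 in Nx10, or 0.566% and 0.355% on day 8. Of the 11 3-gene cells of Nx8, 5 had under 5000 UMIs and were left out before thinning, and none of the other 6 met the rule after it. All 11 of the 12 Nx8 cells with 4 or more rule genes that were deep enough still met it. The same rule called 3 of 397 cells with 3 or more macrophage genes endothelial-like (0.756%), and 1 of 88 with 3 or more megakaryocyte genes.

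The genes that stood out most in endothelial-like cells over the other kept cells were vascular ones. Levels are given as CPM, the UMIs of a gene summed over the cells of a set, per 1000000 UMIs of that set. Log2 ratios compare CPM + 1, while their intervals are those of the plain CPM ratio. A gene was called higher or lower where it differed 2-fold or more. In Nx8, the 1 library with at least 20 endothelial-like cells, 477 of 7037 genes that averaged 20 CPM or more and had 50 UMIs were called higher in them (6.78%) and 518 called lower (7.36%). The rule genes Cldn5, Cdh5, Emcn, Plvap, Sox18 and Tie1 were among the 15 highest, as their selection fixes. The other 9 of the 15 were Cd93, Adgrl4, Rasip1, Gimap6, Icam2, Ptprb, Stab2, Esam and Madcam1. Cd93 encodes a C-type lectin-like receptor of endothelium and had 159 CPM in endothelial-like cells, against 0.380 CPM in the other kept cells of Nx8. Rasip1, a RAS-interacting protein needed for vessel lumens, had 148 CPM, against 0.700 CPM. Ptprb, the phosphatase VE-PTP that acts on TIE2 and VE-cadherin, had 124 CPM, against 0.760 CPM. Stab2, a hyaluronan scavenger receptor known from sinusoidal endothelium, had 122 CPM, against 0.866 CPM. Across 127 genes of 12 vascular lists, 77 were called higher in Nx8 with no minimum on level, where 7.50% of all genes with a UMI were. Comparing these cells with the rest is a description, since the genes of the same cells chose them.

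Vascular lists were described over all 4 libraries pooled, counting the members that averaged 5 CPM or more. Under this rule 9.52% of all genes were called higher and 12.0% lower in endothelial-like cells (9.71% and 15.2% in the 39 cells with 4 or more rule genes). Of 19 measured surface and junction genes 18 were called higher, with a median log2 ratio of 5.34. Esam, a tight-junction adhesion molecule, had 173 CPM in endothelial-like cells, against 0.376 CPM in other kept cells. Pecam1 had 439 CPM, against 3.70 CPM. Of 17 measured transcription factors 17 were called higher (median 2.87). These included the ETS factors Erg with 117 CPM, against 1.27 CPM, and Fli1 with 415 CPM, against 15.9 CPM. The SOX F gene Sox17 had 112 CPM, against 1.78 CPM, and its relative Sox7 45.6 CPM, against 0.0533 CPM. Etv2, the transient pioneer factor of endothelial fate, was detected in 9 of the 39 cells (6 in Hx8 and 3 in Nx8), against 1.15% of other kept cells. The day 10 cells among the 39 were few, 8 in Hx10 and 1 in Nx10. Those of Hx10 were also shallower, with a median of 11891 UMIs, against 23911 in Nx8. Other kept cells with a UMI of Etv2 numbered 34 in Hx8, 95 in Nx8, 16 in Hx10 and 13 in Nx10. Whether Etv2 differs between the days was not tested.

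Of 12 measured ligands and receptors of the VEGF and angiopoietin system 6 were called higher in endothelial-like cells and 2 lower (median 0.96), and 7 and 2 in the 39 cells (median 1.16). Kdr, the main signalling VEGF receptor, had 652 CPM (605 to 701) in endothelial-like cells of Hx8, 355 CPM (312 to 403) in Nx8, 348 CPM (246 to 478) in Hx10 and 310.5 CPM (215 to 434) in Nx10. In the other kept cells it had 24.2 CPM in Hx8, 39.1 CPM in Nx8, 2.80 CPM in Hx10 and 61.03 CPM in Nx10, so every endothelial-like set lay above its own library. With 4 or more rule genes Kdr had 617 CPM (539.5 to 702) in Nx8, 366 CPM (259 to 503) in Hx10 and 1064 CPM (737 to 1487) in Nx10, where 1 cell held all 34 of its UMIs. Flt1, the high-affinity VEGF receptor that can act as a decoy, had 912 CPM over all endothelial-like cells, against 29.5 CPM in other kept cells. Flt4, the VEGF-C receptor, had 109 CPM, against 0.845 CPM. Tek, the angiopoietin receptor TIE2, had 207 CPM, against 90.4 CPM, a smaller log2 ratio of 1.19 (1.06 to 1.34). The ligand Vegfa had 34.1 CPM in endothelial-like cells, against 71.3 CPM in other kept cells, and Angpt1, the TIE2 agonist of supporting cells, 27.1 CPM, against 128 CPM. Their log2 ratios were -1.04 and -2.20, or -0.94 and -3.26 in the 39 cells. The ligand Vegfc was higher (96.7 CPM, against 26.6 CPM), with a log2 ratio of 1.83.

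Notch and vessel-type genes were detected in part of the cells. Whether the cells divide into arterial and venous classes was not tested. Shares of cells are given for the 39 cells with 4 or more rule genes, whose median was 27090 UMIs, beside the other kept cells, whose median was 18309 UMIs. Dll4, the Notch ligand of arterial and tip cells, was detected in 19 of the 39 cells and in 0.145% of other kept cells. Nr2f2, which encodes the venous regulator COUP-TFII, was detected in 22 of the 39, but also in 38.9% of other kept cells, so a UMI of it was not particular to endothelial-like cells. 12 cells had both genes. Of the arterial gap junction genes, Gja4 was detected in 10 cells, Gja5 in 5 and both in 3. Aplnr, the apelin receptor of veins and progenitors, was detected in 27 of 39 cells (17 of 18 in Hx8, 8 of 12 in Nx8, 1 of 8 in Hx10 and 1 of 1 in Nx10), against 5.20% of other kept cells. Its ligand Apln was detected in 13 cells, 7 of them together with Aplnr, against 0.974% of other kept cells. Lymphatic identity was not seen as a joint pattern of Lyve1 and Prox1, the regulator of lymphatic fate. Lyve1 had a UMI in 8 cells, against 1.93% of other kept cells, Prox1 in 9, against 6.65%, and both in 2. Flt4, also on the lymphatic list, was detected in 31, against 1.58%, and Reln in 2, against 5.11%. Pdpn was detected in 3, against 35.4%. Ccl21a was detected in 0, which allows a share of up to 7.69% of cells with a UMI. Thinned to 5000 UMIs, 38 of the 39 cells remained and Dll4 was detected in 4, Aplnr in 15 and Apln in 7 of them, against 0.0628%, 1.25% and 0.228% of other kept cells.

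Genes of mesenchyme, pericytes and smooth muscle were low in the 39 cells, while those of blood lineages were mixed. Erythroid genes summed to 1373 CPM, against 2189 CPM in other kept cells, with 2141 of their 2205 UMIs in 1 Hx8 cell. The list of blood-forming endothelium and early blood summed to 216 CPM in the 39 cells, against 156 CPM. Of its 6 measured members, however, 1 was called higher and 3 were called lower (median -0.99). Mesenchymal genes summed to 161 CPM in the 39 cells, against 6491 CPM in other kept cells, and genes of pericytes and smooth muscle to 98.4 CPM, against 4900.1 CPM. Over all 53 cells the mesenchymal sum was 555 CPM and that of macrophage genes 455 CPM (33.01 CPM in the 39), the excess coming from the cells with 3 rule genes. Of the genes of blood-forming endothelium, Kit was detected in 33 of the 39 cells, against 19.2% of other kept cells, and Tal1 in 23, against 3.27%. Runx1, the factor needed for endothelium to turn into blood, was detected in 9, against 37.4% of other kept cells, and Gfi1 in 0, which again allows up to 7.69% of cells. Of 12 genes of the vascular basement membrane 8 were called higher in the 39 cells and 1, the laminin chain Lama5, lower (median 1.25). Their sum was 5229 CPM, against 3695 CPM in other kept cells. Col4a1, a chain of its main collagen, had 1169.5 CPM in the 39 cells, against 196 CPM in other kept cells, and Lama4, the endothelial laminin chain, 231 CPM, against 9.38 CPM.

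**Figure D3:**
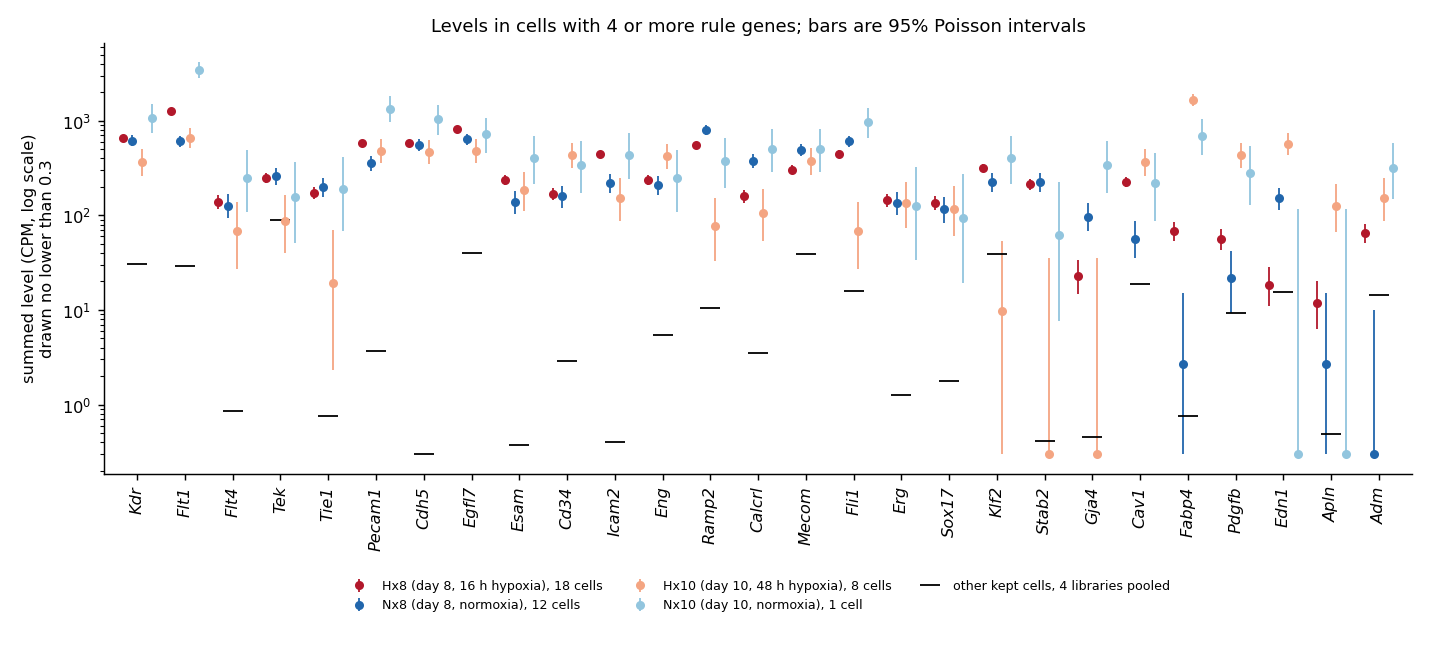
Summed levels (CPM, log scale, y axis) of 27 vascular genes (x axis) in cells with 4 or more rule genes of Hx8, Nx8, Hx10 and Nx10; points are sums over the cells, bars exact 95% Poisson intervals, and black dashes the other kept cells of all 4 libraries pooled; values below 0.3 CPM are drawn at 0.3. Adhesion, receptor and transcription factor genes lay well above the dashes in nearly every library, Tek in Hx10 at 86.8 CPM lay near its dash at 90.4 CPM, and Fabp4, Pdgfb and Edn1 were highest in Hx10.

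The promoters of 4 of these genes are shown because ETS factors such as ERG and FLI1, which bind GGAA cores, were among the genes that marked the cells. RefSeq promoter sequences (build GRCm38.p6, 250 bases before to 50 after the gene start, gene strand, 5′ to 3′) were available for 3 of the 7 rule genes and for Flt1. Capitals mark GGAA or its reverse complement TTCC, overlapping matches included.
Tie1: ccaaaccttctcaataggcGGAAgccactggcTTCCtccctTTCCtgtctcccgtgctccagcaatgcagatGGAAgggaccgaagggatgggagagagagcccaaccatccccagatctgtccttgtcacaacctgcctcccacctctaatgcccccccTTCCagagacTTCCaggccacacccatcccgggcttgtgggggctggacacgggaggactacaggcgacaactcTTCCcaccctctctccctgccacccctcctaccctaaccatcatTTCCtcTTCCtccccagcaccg
Emcn: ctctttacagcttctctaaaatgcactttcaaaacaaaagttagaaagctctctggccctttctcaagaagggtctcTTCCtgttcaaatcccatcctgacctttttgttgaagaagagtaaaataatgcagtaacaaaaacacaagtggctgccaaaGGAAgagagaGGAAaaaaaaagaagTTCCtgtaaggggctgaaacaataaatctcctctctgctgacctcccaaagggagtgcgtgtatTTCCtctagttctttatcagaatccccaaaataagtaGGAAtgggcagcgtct
Cldn5: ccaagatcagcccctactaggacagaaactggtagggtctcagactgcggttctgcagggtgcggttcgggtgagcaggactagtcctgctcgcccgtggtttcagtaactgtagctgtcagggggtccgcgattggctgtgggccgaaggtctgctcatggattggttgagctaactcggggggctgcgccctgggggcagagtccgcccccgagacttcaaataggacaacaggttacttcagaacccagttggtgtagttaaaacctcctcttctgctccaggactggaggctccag
Flt1: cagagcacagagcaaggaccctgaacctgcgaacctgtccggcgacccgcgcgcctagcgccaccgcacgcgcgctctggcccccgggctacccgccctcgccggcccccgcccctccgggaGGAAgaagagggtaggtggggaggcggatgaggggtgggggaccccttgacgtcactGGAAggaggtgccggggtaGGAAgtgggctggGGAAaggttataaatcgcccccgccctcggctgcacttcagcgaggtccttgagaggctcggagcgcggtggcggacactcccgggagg
The Tie1 window (chr4:118489800-118490099, minus strand) held 9 matches, a number reached by 1.59% of the 32851 promoters of the table. The Emcn window (chr3:137340828-137341127, plus strand) held 6 (15.7%), the Flt1 window (chr5:147725962-147726261, minus strand) 4 (46.3%) and the Cldn5 window (chr16:18776597-18776896, plus strand) 0. A core this short is found in 95.98% of all promoters, with a median of 3, so a match describes the letters and is not a site.

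On day 8, endothelial-like cells of the library with 16 h of hypoxia showed much of the difference seen in the other cells of that library. The comparison sets cells after 16 h of hypoxia against cells of the same total age in normoxia. Of 5309 genes that averaged 20 CPM or more and had 50 UMIs, 276 were called higher in Hx8 than in Nx8 (5.20%) and 420 called lower (7.91%). With TMM scaling, which sets most genes equal, they were 501 and 221, so the balance of the directions depends on the scaling. Lists were counted over the members that averaged 5 CPM or more. By that rule 6.18% of all genes were called higher and 17.6% lower in endothelial-like cells. The shares were 7.34% and 14.3% when Nx8 was held to its 12 cells with 4 or more rule genes, and 1.60% and 1.85% in the other kept cells. 1 cell held 31.95% of the UMIs of those 12. All 18 cells of Hx8 have 4 or more rule genes, so only the Nx8 side differs between the 2 versions. The median log2 ratio of all genes was -0.27 (0.01 with TMM), -0.21 with the 12 cells and -0.12 in other kept cells. The summed levels of the lists of other cell types differed between the 2 endothelial-like sets: endoderm genes stood at 40.95 CPM in Hx8, against 3137 CPM in the 23 cells and 5.39 CPM in the 12 cells of Nx8. Mesenchymal genes stood at 169 CPM, against 1329 and 151 CPM.

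HIF target genes outside glycolysis were higher as a list. Of 35 measured members 23 were called higher and 2 lower in Hx8 endothelial-like cells, with a median log2 ratio of 1.27. With the 12 cells of Nx8 the counts were 27 and 2 and the median 1.77. In other kept cells 31 of 37 were higher and none lower, with a median of 1.87. Adm, the vasodilator peptide adrenomedullin, had 64.6 CPM (50.5 to 81.5) in Hx8, against 1 UMI in Nx8, or 1.48 CPM (0.0373 to 8.22). It was detected in 17 of 18 cells of Hx8 and in 1 of 23 cells of Nx8, and the log2 ratio was 4.73 (2.93 to 10.78), against 2.08 in other kept cells. Against the 12 Nx8 cells, none of which had a UMI, the log2 ratio of plain CPM, without the added 1, was at least 2.999, taking 3 UMIs in the 12 cells together as the floor. Ankrd37, an ankyrin repeat gene induced by HIF, had 147 CPM in Hx8, against 8.85 CPM in the 23 cells and 8.08 CPM in the 12 cells of Nx8. Stc1, a secreted glycoprotein, had 41.9 CPM, against 2.95 CPM (2 UMIs). Its relative Stc2 had 37.3 CPM, against 0 CPM in Nx8, where 3 UMIs over the 23 cells would be 4.43 CPM. Per cell, Adm stood at 0, 63.1 and 455 CPM in Hx8 as lowest, median and highest value, and at 0, 0 and 16.97 CPM in Nx8.

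Other HIF targets ranged more widely. Ndrg1, a stress-response gene, had 75.5 CPM in Hx8, against 14.8 CPM in the 23 and 5.39 CPM in the 12 cells of Nx8, so its log2 ratio was 2.28 or 3.58. Bnip3, a mitophagy receptor, had a log2 ratio of 1.02 (0.60 to 1.46), or 1.68 with the 12 cells. Slc2a1, the glucose transporter GLUT1, had 421 CPM (384 to 462) in Hx8, against 208 CPM (175 to 245) in the 23 cells and 148 CPM in the 12 cells of Nx8, while other kept cells had 804 CPM in Hx8 and 345 CPM in Nx8. Egln3, the oxygen-sensing prolyl hydroxylase PHD3, had a smaller ratio here: it was 1.42 (0.85 to 2.08) in endothelial-like cells, 1.03 with the 12 cells and 2.97 in other kept cells. Its normoxic level was 42.8 CPM in endothelial-like cells, against 6.95 CPM in other kept cells of Nx8. Vegfa had a log2 ratio of 0.89 (0.02 to 1.91), or 1.23 with the 12 cells, against 1.83 (1.80 to 1.96) in other kept cells. Its direction was not stable: with the 12 cells and each cell weighted equally it was -0.59. Of the members called lower, 1 is described here, chosen after its values were seen. Cited2, a negative regulator of HIF, had 40.04 CPM in Hx8, against 173 CPM in the 23 and 86.2 CPM in the 12 cells of Nx8. In other kept cells Cited2 had a log2 ratio of 0.61.

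Glycolysis genes were higher in Hx8 and mitochondrially encoded transcripts lower. Of 15 measured glycolysis enzymes 7 passed 2-fold upward and none downward (median 0.94). With the 12 cells of Nx8 it was 10 (median 1.20), and in other kept cells 13 of 16 (median 1.63). Pgk1, phosphoglycerate kinase, had 3299 CPM (3192 to 3408) in Hx8, against 1031 CPM (956 to 1110.4) in Nx8. The lowest, median and highest cell had 2033, 3305 and 6157 CPM of Pgk1 in Hx8, and 0, 649 and 3683 CPM in Nx8. Pfkp, the platelet-type phosphofructokinase, had a log2 ratio of 3.44 (2.48 to 4.90), or 5.06 with the 12 cells, which held 1 UMI, and Gpi1 of 1.51 (1.28 to 1.76). Ldha, which makes lactate, had 1781 CPM in Hx8, against 1232 CPM in Nx8. Its log2 ratio was 0.53, or 0.89 with the 12 cells, against 1.77 in other kept cells. In normoxia Ldha was 1232 CPM in endothelial-like cells, against 538 CPM in other kept cells of Nx8, and Pgk1 1031 CPM, against 396 CPM. Hypoxic Ldha levels were close, 1781 CPM in endothelial-like cells and 1838 CPM in other kept cells of Hx8. Of the 13 mitochondrially encoded genes 5 were called lower in Hx8 (median -0.77), 7 with the 12 cells (median -1.04) and 7 in other kept cells (median -1.15). mt-Nd3, a complex I subunit, had 205 CPM in Hx8, against 985 CPM in Nx8. The overlapping transcripts mt-Atp8 and mt-Atp6, and mt-Nd4l and mt-Nd4, share reads and were not told apart.

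**Figure D4:**
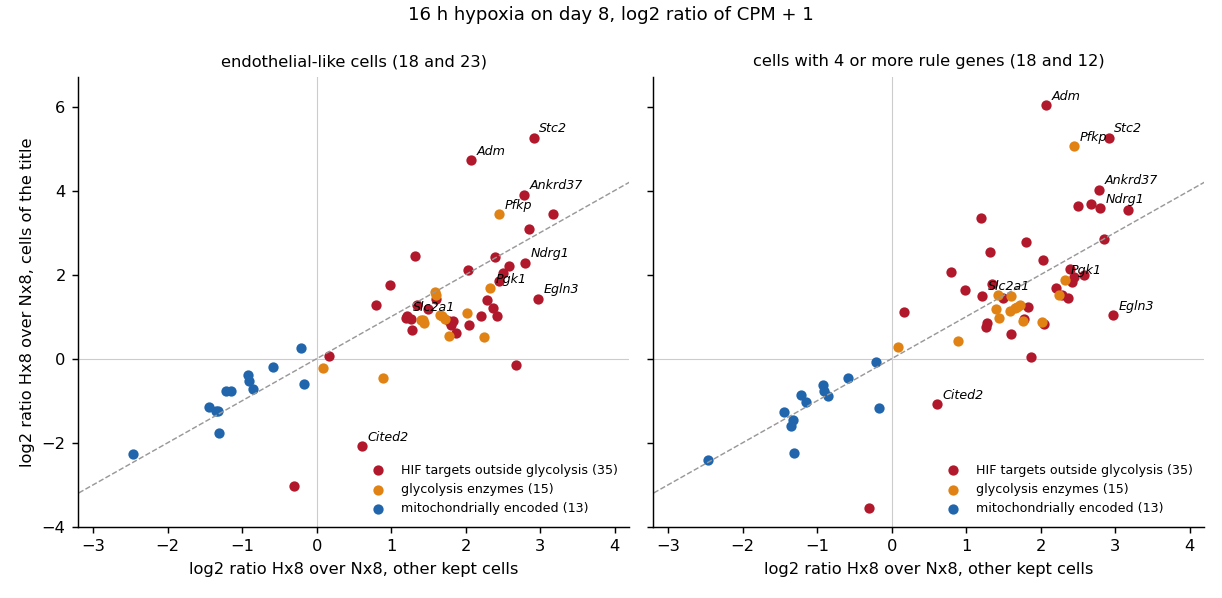
Log2 ratio of Hx8 over Nx8 for HIF targets, glycolysis enzymes and mitochondrially encoded genes, in endothelial-like cells (left, y axis) and in cells with 4 or more rule genes (right, y axis) against the same ratio in other kept cells (x axis); each point is 1 gene, and on the dashed line both ratios are equal. Most points follow the direction of the other kept cells; Adm lies above the line (4.73 against 2.08) and Egln3 below it (1.42 against 2.97).

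Promoters of the 2 HIF targets with an entry that ranked among the highest are shown for the HIF core letters. Capitals mark ACGTG or GCGTG on either strand (CACGT and CACGC on the printed strand).
Ankrd37: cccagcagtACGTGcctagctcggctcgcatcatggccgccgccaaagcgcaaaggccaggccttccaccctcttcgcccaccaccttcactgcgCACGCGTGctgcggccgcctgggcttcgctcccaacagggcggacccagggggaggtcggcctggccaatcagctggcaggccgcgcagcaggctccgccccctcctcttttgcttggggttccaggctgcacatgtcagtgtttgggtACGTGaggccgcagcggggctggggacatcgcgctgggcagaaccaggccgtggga
Adm: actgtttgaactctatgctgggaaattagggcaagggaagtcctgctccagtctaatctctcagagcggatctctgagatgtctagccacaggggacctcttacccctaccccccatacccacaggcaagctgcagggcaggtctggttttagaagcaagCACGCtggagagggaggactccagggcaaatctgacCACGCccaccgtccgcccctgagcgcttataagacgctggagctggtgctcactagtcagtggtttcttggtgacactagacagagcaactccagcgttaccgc
The Ankrd37 window (chr8:45999801-46000100, minus strand) held 4 matches, as many as or more than which 3.86% of promoters hold. The Adm window (chr7:110627407-110627706, plus strand) held 2 (20.6%). Of the 40 listed HIF targets 31 had an entry, and 30 of these had the core in at least 1 of their promoters, against 46.7% of all 27025 symbols in the table. 43.8% of all single promoters held it. Some other lists had high shares too: 9 of 9 Notch pathway genes with an entry, 10 of 12 p53 targets and 7 of 9 sprouting tip genes. Lists with low shares included surface and junction genes (2 of 7) and erythroid genes (0 of 7). As above, a match describes the letters and is not a site.

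Among vascular genes on day 8, receptors and surface genes stood higher in Hx8, but much of this depended on the 3-gene cells of Nx8. Flt1 had 1262 CPM (1197 to 1330.4) in Hx8, against 376 CPM (331 to 425) in the 23 cells and 609 CPM (532 to 694) in the 12 cells of Nx8. The log2 ratio was 1.74 (1.55 to 1.95), or 1.05 (0.85 to 1.26) with the 12 cells, against 0.68 in other kept cells. Per cell, Flt1 had 191, 1002 and 5548 CPM as lowest, median and highest value in Hx8, and 0, 529 and 2195 CPM in the 12 cells of Nx8, so single cells overlapped. Kdr was higher against the 23 cells (log2 ratio 0.87, 0.66 to 1.09) but not beyond counting error against the 12 cells (0.08, -0.14 to 0.30), and in other kept cells it was lower in hypoxia (-0.67, -0.77 to -0.61). Tek had a log2 ratio of 0.36 against the 23 cells and -0.07 against the 12. Of 11 measured genes of the VEGF and angiopoietin system 2 were called higher, Flt1 and Vegfc, and 2 lower, Angpt1 and Pgf. Against the 12 cells Pgf was under the minimum level, and Angpt1 had 18.2 CPM in Hx8, from 2 cells, and no UMI in the 12 cells, where 3 UMIs would be 8.08 CPM. Pecam1 had 585 CPM in Hx8, against 201 CPM in the 23 and 356 CPM in the 12 cells of Nx8. Of 19 measured surface and junction genes 10 were called higher and 1 lower (median 1.18), but 3 and 0 with the 12 cells (median 0.37). Those 3 were Icam2, Mcam and Gpihbp1. Icam2, an adhesion molecule of junctions, had 441 CPM in Hx8, against 218 CPM in the 12 cells. Mcam, the adhesion molecule CD146, had 95.6 CPM, against 29.6 CPM, and was detected in 711 of 3327 other kept cells of Hx8, against 463 of 3145 of Nx8. Gpihbp1, which anchors lipoprotein lipase on capillary endothelium, had 48.2 CPM, against 10.8 CPM, and was detected in 15 of 18 cells, against 3 of 12.

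Genes of sprouting tip cells were higher in Hx8 in both versions. Of 9 measured members 5 were called higher and 1 lower (median 1.06), and of 8 with the 12 cells 5 and 0 (median 1.38). In other kept cells 1 of 6, Adm, was higher (median 0.20). Adm belongs to this list and to the HIF list. Kcne3, a potassium channel subunit found in tip cells, had 202 CPM (176 to 230.4) in Hx8, against 75.4 CPM (50.1 to 109) in the 12 cells of Nx8. Pdgfb, the growth factor that draws pericytes to vessels, had 56.4 CPM (43.3 to 72.3), against 21.5 CPM (9.30 to 42.5). Nid2, a basement membrane glycoprotein, had 133 CPM, against 24.2 CPM. Apln rested on few UMIs, 13 in Hx8 and 1 in Nx8 (11.8 and 1.48 CPM), with a log2 ratio of 2.37 (0.27 to 8.41), or 1.80 (-0.60 to 7.54) with the 12 cells. Dll4 did not differ beyond counting error with the 12 cells (0.23, -0.80 to 1.42). Esm1 and Angpt2, other tip cell genes, were low on day 8. Esm1 had 6.37 CPM in Hx8, against 0 CPM in Nx8, where 3 UMIs would be 4.43 CPM, and Angpt2 had 5.46 CPM, against 2.95 CPM.

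Basement membrane, transport and flow genes differed unevenly. Of 12 basement membrane genes 6 were called higher and 1 lower in Hx8 (median 0.99), and 3 and 1 with the 12 cells (median 0.59). Col4a1 had 1286 CPM (1219.7 to 1355) in Hx8, against 813 CPM (724 to 911) in the 12 cells of Nx8, a log2 ratio of 0.66, against 0.27 in other kept cells. Cav1, the structural protein of caveolae, had 225 CPM (198 to 255), against 56.6 CPM (35.02 to 86.5), and was detected in 17 of 18 cells, against 7 of 12. Fabp4, a fatty acid carrier of capillary endothelium, had 68.3 CPM, against 2.69 CPM (1 UMI), and its UMIs lay in 5 of the 18 cells. Klf2, the shear-stress factor, had a log2 ratio of 1.30, or 0.50 (0.15 to 0.87) with the 12 cells. Some genes were lower in Hx8. Edn1, the vasoconstrictor endothelin-1, had 18.2 CPM (11.1 to 28.1) in Hx8, against 151 CPM (114 to 196) in the 12 cells of Nx8, and its UMIs lay in 3 of 18 and 4 of 12 cells. Calcrl, the receptor for adrenomedullin, had 158 CPM (136 to 184), against 379.8 CPM (319.7 to 448), and its partner Ramp2 548 CPM (505 to 593), against 803 CPM (714 to 899); against the 23 cells their log2 ratios were -0.47 and 0.27. Ramp2 lies over Vps25 on the same strand, so reads of the 2 may be split. Of 3327 other kept cells in Hx8 and 3145 in Nx8, Cav1 was detected in 476 and 241. Calcrl was detected in 120 and 201 of them and Ramp2 in 532 and 1003, while Edn1 went the other way, in 343 and 273.

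Endocardial genes, listed for the lining of the heart, were lower in Hx8. Of 6 measured members 4 were called lower and none higher, with 23 or with 12 cells (median -1.59 and -2.13), against a median of 0.20 in other kept cells. Hapln1, a hyaluronan link protein of the cardiac jelly, had 110.1 CPM (91.4 to 132) in Hx8, against 379.8 CPM (319.7 to 448) in the 12 cells of Nx8. Its lowest, median and highest cell had 0, 81.9 and 328 CPM in Hx8, and 0, 284 and 1337 CPM in the 12 cells. Nrg1, the neuregulin that endocardium sends to heart muscle, had 9.10 CPM (4.36 to 16.7) in Hx8, against 159 CPM (121 to 205) in the 12 cells of Nx8, and was detected in 5 of 18 and 8 of 12 cells. Npr3, the natriuretic peptide receptor of endocardium, had 6.37 CPM (2.56 to 13.1), against 40.4 CPM (22.6 to 66.6). Nfatc1, the endocardial transcription factor, had a log2 ratio of -0.26 (-1.33 to 0.89) with the 12 cells. Tbx20 and Tmem108 of this list were far higher in other kept cells (144 and 623 CPM in Nx8) than in endothelial-like cells of Nx8 (36.9 and 131 CPM). The arterial connexin Gja4 was also lower, with 22.8 CPM in Hx8, from 4 of its cells, against 96.97 CPM in Nx8, from 5 of the 12 cells, a log2 ratio of -2.04, or -1.19 with the 23 cells.

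Transcription factors differed with the version of Nx8. Of 18 measured 5 were called higher and 1 lower against the 23 cells (median 0.45), but 0 and 5 against the 12 cells (median -0.16). Tal1, a factor of blood and endothelial progenitors, was lower in both, with 20.02 CPM (12.5 to 30.3) in Hx8, against 53.9 CPM (32.9 to 83.2) in the 12 cells. Erg had log2 ratios of 0.86 and 0.11 and Fli1 of 0.31 and -0.44. Of 8 measured Notch pathway genes 2 were called higher and 1 lower against the 23 cells (median 0.77), and 1 and 2 against the 12 (median 0.02). Hey1, a Notch target that is part of arterial fate, had 30.03 CPM (20.7 to 42.2) in Hx8, against 2.69 CPM (0.0682 to 15.01) in the 12 cells of Nx8. Among other kept cells it was detected in 199 of 3327 in Hx8 and 92 of 3145 in Nx8. Of 7 measured genes of blood-forming endothelium and early blood 5 were called lower and 1 higher (median -2.30). Against the 12 cells 3 of 4 were lower, Runx1, Itga2b and the adhesion gene Cd44 (median -2.13). Runx1 had 5.46 CPM (2.004 to 11.9) in Hx8, against 43.1 CPM (24.6 to 69.99) in those 12 cells. Its UMIs lay in 4 of 18 and 2 of 12 cells, so the level in Nx8 rested on 2 cells.

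**Figure D5:**
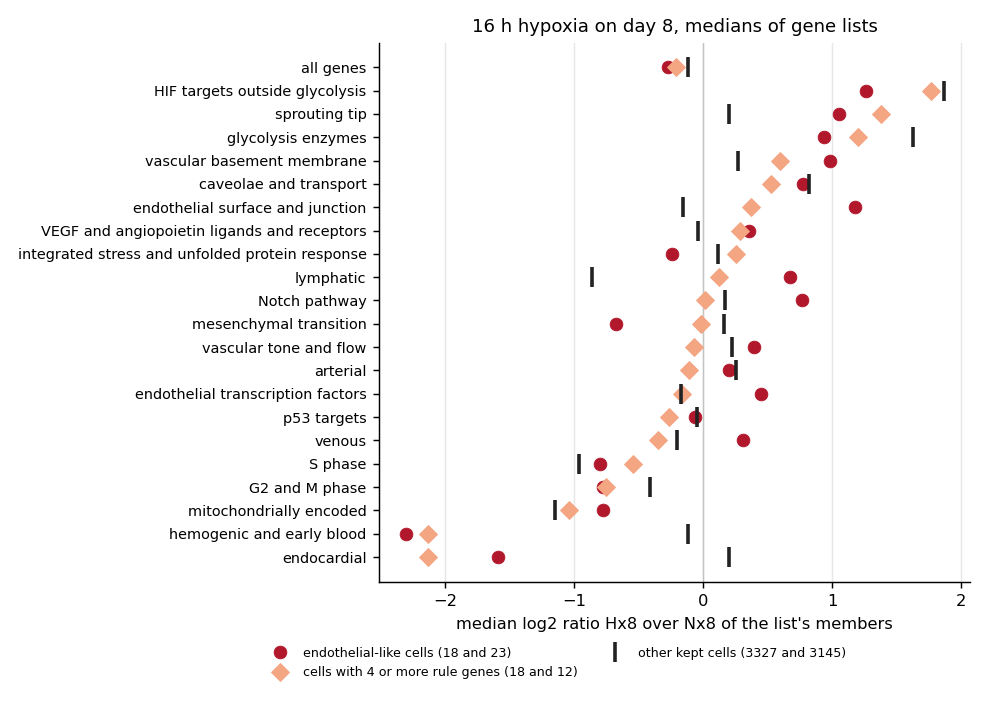
Median log2 ratio of Hx8 over Nx8 (x axis) of the members of each gene list (y axis) that averaged 5 CPM or more, in endothelial-like cells, in cells with 4 or more rule genes and in other kept cells. HIF and glycolysis lists lie right of 0 in all 3 sets, the sprouting tip list does so in the 2 endothelial-like sets with other kept cells at 0.20, and the endocardial list lies at -1.59 and -2.13 with other kept cells at 0.20.

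S phase genes were lower in Hx8, while the direction of G2 and M phase genes depended on how cells were weighted. Of 30 S phase genes none passed 2-fold upward and 12 did downward (median -0.80), with 8 against the 12 cells (median -0.54) and 15 in other kept cells (median -0.97). The median of 30 G2 and M phase genes was -0.78 in summed counts, with 7 members called lower, but 0.13 in the mean of per-cell CPM, which gives each cell the same weight. In other kept cells none were called lower (median -0.41). Division genes lay in few cells: 4 of the 18 Hx8 cells held 382, 385, 437 and 447 UMIs of this list, and 2 of the 12 Nx8 cells held 548 and 618. Top2a, the topoisomerase of dividing cells, had 155 CPM (132 to 179.8) in Hx8, against 277 CPM (226 to 336) in the 12 cells of Nx8, with cell medians of 42.2 and 42.3 CPM. Mki67, which encodes the division marker Ki-67, was detected in 9 of 18 and 2 of 12 cells, with 97.4 CPM (79.8 to 118) in Hx8, against 99.7 CPM (70.2 to 137) in the 12 cells.

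By rank, the highest log2 ratios of Hx8 over Nx8 included hemoglobin genes, which came from 1 cell. Hba-a1 (5.81) and Hbb-y (4.97) led the ranking, and 1 Hx8 cell of 115802 UMIs held 2426 of the 2470 hemoglobin UMIs of the 18 cells. Next came Fabp4 (4.81), Adm, Ankrd37, Pfkp, Xylt1 (3.23) and Fam78b (3.21), the last pair at 2.63 and 2.55 with the 12 cells. Xylt1, which starts glycosaminoglycan chains, had 106 CPM in Hx8, against 16.2 CPM in the 12 cells of Nx8, and 34.4 and 29.6 CPM in other kept cells. Pde4b, a cAMP phosphodiesterase, was among the 6 genes whose ratio most exceeded that of other kept cells, with 269 CPM (239.6 to 302) in Hx8, against 48.5 CPM (28.7 to 76.6) in the 12 cells. Its log2 ratio was 2.45 there and -0.01 in other kept cells. The lowest were Spink1, Ccl3, Car4, Ttr, S100g, Pf4, Cited1 and Ccl4. All 8 are genes of the 3-gene cells: Spink1 and Ttr are endoderm genes, Pf4 a megakaryocyte gene and Ccl3 and Ccl4 macrophage chemokines. In the 12 cells of Nx8 they held 1, 0, 0, 1, 0, 1, 0 and 0 UMIs, against 1209, 147, 110, 708, 175, 509, 76 and 58 in the 11 others.

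On day 10 the comparison rested on 9 cells of Hx10 and 3 of Nx10, and with 4 or more rule genes on 8 and 1. Of 607 genes that met the minimum, 101 were called higher in Hx10 (16.6%) and 139 lower (22.9%). The lower genes were led by macrophage genes, Tyrobp, Ccl4, Fcer1g, Mrc1, C1qb, F13a1 and Ccl3 among them, whose list summed to 9.16 CPM in Hx10, against 6602 CPM in Nx10, and 62.6 CPM in the 1 Nx10 cell with 4 or more rule genes. Levels of Hx10 are therefore given beside those of each other library. By the rule used for lists, 21.7% of all genes were called higher and 27.8% lower here, and 32.9% and 30.5% in cells with 4 or more rule genes. Of 33 measured HIF targets 20 were called higher and none lower in Hx10 than in the 3 cells of Nx10 (median 1.34). Against the 1 cell it was 16 of 34 higher and 5 lower (median 0.82), and in other kept cells, where 4.72% of all genes were called higher and 26.2% lower, it was 25 of 36 higher and 1 lower (median 1.27). Medians of glycolysis enzymes were 0.59 against the 3 cells, 0.80 against the 1 cell and 1.01 in other kept cells. Those of mitochondrially encoded genes were -1.29, -0.60 and -2.02. The median of all genes was 0.00 against the 3 cells, -0.11 against the 1 cell and -0.44 in other kept cells.

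Several vascular genes stood apart in Hx10, and their levels are given in the cells with 4 or more rule genes of Hx8, Nx8, Hx10 and Nx10 (18, 12, 8 and 1 cells). In the 1 cell of Nx10, 3 UMIs would be 93.9 CPM, so a 0 there allows levels up to that. The released peptides Edn1 and Pgf and the lipid carrier Fabp4 were high in Hx10. Edn1 had 18.2 CPM in Hx8, 151 CPM in Nx8, 569 CPM (433 to 734) in Hx10 and 0 CPM in Nx10, and was detected in 7 of the 8 cells of Hx10. Fabp4 had 68.3 CPM in Hx8, 2.69 CPM in Nx8, 1668 CPM (1429 to 1936) in Hx10 and 689 CPM in Nx10, but its Hx10 UMIs lay in 4 of 8 cells. Pgf, a placental growth factor that binds FLT1, had 2.73 CPM in Hx8, 5.39 CPM in Nx8, 723 CPM (569 to 906) in Hx10 and 0 CPM in Nx10, in 6 of 8 cells of Hx10. The tip cell genes Pdgfb, Esm1 and Apln also stood above their day 8 levels. Pdgfb had 56.4 CPM in Hx8, 21.5 CPM in Nx8, 434 CPM (316 to 581) in Hx10 and 282 CPM (129 to 535) in Nx10. Esm1, an endothelial proteoglycan of tip cells, had 6.37 CPM in Hx8, 0 CPM in Nx8, 145 CPM (80.9 to 239) in Hx10 and 344 CPM in Nx10, in 3 of 8 cells of Hx10. Apln had 11.8 CPM in Hx8, 2.69 CPM in Nx8, 125 CPM (66.7 to 214) in Hx10 and 0 CPM in Nx10. Adm, Esm1 and Gpihbp1 were higher still in the 1 cell of Nx10. Adm had 64.6 CPM in Hx8, 0 CPM in Nx8, 154 CPM (88.2 to 251) in Hx10 and 313 CPM (150.1 to 576) in Nx10. Gpihbp1 had 48.2 CPM in Hx8, 10.8 CPM in Nx8, 260.3 CPM (172 to 379) in Hx10 and 939 CPM (633 to 1340.4) in Nx10, so both libraries of day 10 lay above both of day 8. Cxcl12, the ligand of CXCR4, had 10.9 CPM in Hx8, 16.2 CPM in Nx8, 1224 CPM (1021 to 1457) in Hx10 and 282 CPM in Nx10. Other genes were low in Hx10. Klf2 had 317 CPM in Hx8, 224 CPM in Nx8, 9.64 CPM (0.244 to 53.7) in Hx10 and 407 CPM in Nx10. Ramp2 had 548 CPM in Hx8, 803 CPM in Nx8, 77.1 CPM (33.3 to 152) in Hx10 and 376 CPM in Nx10, and Tie1 174 CPM in Hx8, 199 CPM in Nx8, 19.3 CPM (2.34 to 69.7) in Hx10 and 188 CPM in Nx10. Stab2 and Clec14a, an endothelial lectin, had no UMI in the 8 cells, where 3 UMIs would be 28.9 CPM. Kdr had 366 CPM (259 to 503) in Hx10, against 1064 CPM (737 to 1487) in the 1 cell of Nx10. Other kept cells of Hx10 (4607, median 12809 UMIs) and Nx10 (2676, median 20324 UMIs) also differed for some of these genes. Edn1 was detected in 1077 and 242 of them, Pdgfb in 1113 and 149, and Adm in 988 and 195. Ramp2 was detected in 94 and 421, and Kdr in 163 and 1122. Pgf, in 1213 and 622, differed little by share of cells. How far these levels share a difference of the whole library was not tested.

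The highest log2 ratios of Hx10 over Nx10 were those of Pgf, Edn1, Pcgf5, Ghr, Cald1, Cxcl12, Enah and Tpm1. Cald1, Enah and Tpm1 encode proteins of the actin skeleton. Tpm1, a tropomyosin, had 1622 CPM (1391 to 1879) in Hx10, against 146 CPM (83.5 to 237) in the 3 cells and 469 CPM in the 1 cell of Nx10, and 1985 and 1809 CPM in other kept cells. Cald1, caldesmon, had 1438 CPM in Hx10, against 100.4 CPM in the 3 cells and 250.4 CPM in the 1 cell of Nx10. On day 8 they were lower: Tpm1 had 212 CPM in Hx8 and 151 CPM in the 12 cells of Nx8. Smooth muscle genes, which also use the actin skeleton, summed to 266 CPM in Hx10 endothelial-like cells, against 27.4 CPM in Nx10, and to 7332 CPM in other kept cells of Hx10. In Hx10, 1 endothelial-like cell of 25134 UMIs held 23 of the 29 UMIs of this list. The 1 cell of Nx10 with 4 or more rule genes held 0. The part of RNA from the other kept cells in the result was not tested.

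Age in normoxia was compared between the same 3 cells of Nx10 and the 23 of Nx8, which also serve the hypoxia comparisons. Of 2935 genes 372 were called higher on day 10 (12.7%) and 844 lower (28.8%). The highest included Tbxas1, Mrc1, C1qb and F13a1, and the lowest Spink1, Rbp4, Ttr and Pf4, so both ends held genes of other cell types. The lists named above had medians of -0.22 (HIF targets), -0.14 (glycolysis) and 0.49 (mitochondrially encoded), beside -0.22 for all genes. Between the 1 cell of Nx10 and the 12 of Nx8 with 4 or more rule genes they were 0.85, -0.23 and -0.32, beside -0.62. The 1 cell of Nx10 with 7 rule genes had Flt1 at 3443 CPM (2829.5 to 4149), against 609 CPM (532 to 694) in the 12 cells of Nx8, and Pecam1 at 1346 CPM (974 to 1813), against 356 CPM (297 to 422). Being 1 cell, it describes itself and not the age.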

How the data were processed

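Single cells of embryoid bodies were profiled with the 10x Genomics single cell 3' v3.1 kit, 1 library per condition. The authors deposited UMI counts per gene and cell barcode, made with Cell Ranger 7.1.0 on mm10, per the submitters' processing notes. Filters applied before deposit, and whether strand was used in counting, are not given in the sources used here. Reads of genes that overlap on 1 strand may be split between them, which here concerns Ramp2 with Vps25, Rasip1 with Izumo1 and Nfib with Gm11267. The 3' counts carry no correction for amplification beyond the UMIs.

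From these counts, barcodes with 500 genes or more and 15% mitochondrial UMIs or less were kept, and endothelial-like cells were taken by the rule of 3 of 7 genes. No doublet caller was run; cells with 3 or more genes of another cell type's list, and the 5% of cells with most UMIs, were left out as alternatives. UMIs were summed per library and cell set. Genes were counted as called at a 2-fold difference if they averaged 20 CPM and had 50 UMIs over both sets, and list members if they averaged 5 CPM. Levels have exact Poisson intervals, ratios exact conditional binomial ones and shares Clopper-Pearson ones, all at 95% and covering counting error only, and 3 counts were taken as the floor of a 0. With 1 library per condition no test across samples was possible. Thinning drew 5000 UMIs per cell and left out shallower cells. The text names the 7 rule genes, the 15 genes highest over other kept cells in Nx8, the 8 highest and 8 lowest and the 6 largest response differences per comparison, members of the vascular lists, the largest ratios of other lists and a set of known hypoxia and vessel genes. The members and the gene lists were chosen with earlier results of these data known. The values of 1 gene are not reported here. The code was tested on simulated data. The scripts ran on scipy 1.17.1, numpy 2.4.6, matplotlib 3.10.9 and pandas 2.3.3 under Python 3.11.15. Promoters came from RefSeq tables on GRCm38.p6.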

Additional observations from a re-analysis of the deposited data

Results flagged for a closer look

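In 3 genes the endothelial-like cells and the other kept cells differed in opposite directions between 48 h of hypoxia and normoxia on day 10, and none of these differences was tested. Each rests on 9 cells of Hx10 and 3 of Nx10, of which 8 and 1 have 4 or more rule genes. The 2 other cells of Nx10 held 316 and 405 UMIs of macrophage genes. They gave 77560 of the 109511 UMIs of Nx10, so its levels below are largely those of these 2 cells. Ghr, the growth hormone receptor, had 1301 CPM (1096 to 1533) in endothelial-like cells of Hx10, against 27.4 CPM (5.65 to 80.1) in those of Nx10, and 201 and 431 CPM in other kept cells, so the log2 ratio was 6.61 larger in endothelial-like cells. Meis2, a homeobox factor, had 641 CPM (499.9 to 810.2), against 73.1 CPM (31.5 to 144), and 182 and 656 CPM in other kept cells, a difference of 4.96. Nfib, a transcription factor that overlaps Gm11267, had 403 CPM (293 to 541), against 91.3 CPM (43.8 to 168), and 74.4 and 407 CPM in other kept cells, a difference of 4.57.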

How the results depend on the processing

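Values differed with the choice of cells, and also with the scaling, the weighting of cells, thinning and the minimum level. Each condition is 1 library, so no setting adds a replicate. No paired analysis was possible because each condition has 1 library and no test was made. The share of endothelial-like cells in Hx8 was 2.003% with 2 of 7 genes, 1.43% without cells of mixed markers and 0.252% without the deepest cells. In Nx8 it was 2.59% with 2 genes, 0.379% with 4, 1.30% without mixed markers, 0.631% without the deepest cells and 0.355% thinned. With 2 genes it was 0.607% in Hx10 and 1.12% in Nx10. Leaving out cells of mixed markers took away 2225 kept cells in Hx8 and 1862 in Nx8. The shares of 1.43% and 1.30% are thus 16 of 1120 and 17 of 1306 cells, larger because the total shrank and not because endothelial-like cells were added.

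Counts of genes called in Hx8 over Nx8 were 501 higher and 221 lower with TMM scaling, 498 higher and 638 lower with each cell weighted equally, 137 higher and 129 lower without the deepest cells, 31 higher and 9 lower thinned, 174 higher and 226 lower with a minimum of 50 CPM and 1184 higher and 4423 lower with no minimum. Lower calls alone were 204 with 2 rule genes, 238 with 4 and 235 without mixed markers. In Hx10 over Nx10 the counts were 343 higher and 1075 lower with 2 rule genes, 51 higher and 43 lower with 4, 54 higher and 45 lower without mixed markers, 21 higher and 5 lower thinned, 2888 higher and 3480 lower with no minimum and 51 higher and 45 lower with 4 rule genes and equal weights, a setting added after seeing the data. In Nx10 over Nx8 they were 162 higher and 370 lower with 4 rule genes, 148 higher and 329 lower without mixed markers, 218 higher and 340 lower without the deepest cells, 6 higher and 24 lower thinned, 2266 higher and 7532 lower with no minimum and 215 higher and 333 lower with 4 genes and equal weights. Lower calls were 262 with 2 genes. Thinning leaves fewer UMIs and the filters change which genes are counted; for the other settings the cause was not tested. Vascular list genes called higher than in other kept cells numbered 59 with 2 rule genes to 88 with all libraries pooled, beside 77 in Nx8.

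The log2 ratio of Apln on day 8 turned to -0.66 after thinning, from few UMIs. Smaller log2 ratios, under a 2-fold difference as reported, also changed sign: Vegfa to -0.59 with 4 rule genes and equal weights, Dll4 to -0.52 with equal weights, Angpt2 to -0.30 with 2 rule genes, Tek to -0.07 with 4, and Top2a and Mki67 to 0.98 and 6.30 thinned. Those of the rule genes Tie1, Cldn5, Emcn, Sox18 and Ecscr changed sign in at least 1 setting. On day 8 the medians of HIF targets (1.13 to 2.01), glycolysis enzymes (0.93 to 1.39), sprouting tip genes (0.38 to 3.03), mitochondrially encoded genes (-1.22 to -0.47) and endocardial genes (-4.26 to -0.41) kept their direction in the settings run. The G2 and M phase median did not (-0.78 to 0.23). With TMM scaling the medians of p53 targets and of the unfolded protein response changed sign, to 0.21 and 0.02. Depth limits day 10 most, where 3 UMIs in Hx10 endothelial-like cells equal 27.5 CPM.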
